A study of Homo sapiens with 6 samples.

Results

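The proteasome genes of MDA-MB-231 cells were examined after knockdown of Sam68, an RNA-binding protein encoded by KHDRBS1 that takes part in splicing. MDA-MB-231 is an established human line derived from breast cancer of the triple-negative kind, which lacks the estrogen and progesterone receptors and HER2 amplification. Members were the loci of the deposited table whose gene symbol begins with PSMA to PSMG followed by a number, and 47 of the 74852 loci listed met this rule. The libraries came from cells given siRNAs that target no gene (si-CTRL, 3 libraries) or 4 pooled siRNAs that target SAM68 (si-SAM68, 3 libraries). Per the labels transfection was done in 2 rounds and cells were taken 24 h after the last. The methods of the study give a longer time, counted from transfection and without naming rounds. Whether the harvest differed cannot be told from this. Both groups are the same line in culture and differ in the siRNA pool. Whether the replicates were separate cultures is not given, so that the p-values measure the spread between these libraries.

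The 26S proteasome degrades proteins tagged with ubiquitin. Its 20S core is a barrel of stacked rings, in which the outer alpha subunits (PSMA) form the gate and 3 of the beta subunits (PSMB5, PSMB6 and PSMB7) cut peptide bonds. The 19S cap binds and unfolds the substrate with a ring of ATPases (PSMC) and a set of non-ATPase subunits (PSMD), and PSMG proteins and some PSMD proteins act as chaperones during assembly. In cells exposed to interferon, PSMB8, PSMB9 and PSMB10 replace the constitutive catalytic subunits to form the immunoproteasome, and PSME1 and PSME2 form the PA28 activator, which opens the core without ubiquitin. When proteasome activity falls, many cells raise the subunit genes together through the transcription factor NFE2L1, and tumor cells are known to depend on proteasome activity.

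Values are normalized read counts, which are the reads on a locus divided by the size factor of the library. The values (100% in each library, tolerance 0.01) could be turned back into whole reads, which gave between 52625492 and 82568487 reads. The knockdown was seen in each library, since KHDRBS1 lay between 14483 and 15660 in si-CTRL and between 583 and 670 in si-SAM68 (log2 fold change -4.60, limma adjusted p = 2.13e-09). Of the 7 genes expected in this line (VIM, CD44, KRT8, KRT18, EGFR, SPARC and AXL) all were abundant, whereas PGR was at 0 and CDH1, EPCAM and ESR1 did not exceed 15.2 in a library. Leukocytes, which carry the immunoproteasome as a rule, were looked for with 11 markers. CD68 was left out because its locus is joined with EIF4A1 and other genes. The summed level of the 11 was 105 to 162 in si-CTRL and 118 to 166 in si-SAM68. In each library 9 of the 11 stayed under 20, whereas ITGAM lay between 56.2 and 116 and CD74 between 2.23 and 30. Of the defining markers, PTPRC, CD3E and CD14 did not exceed 13.6. Reads on the rRNA locus made up 15.1% of si-SAM68 replicate 2 and 1.83% to 3.17% of the others. Of the 47 loci, 45 passed the filter (mean over all libraries of 10 or more) and were tested, among 18849 loci in all. The other two, PSMA8 of the testis proteasome and PSMB11 of the thymus proteasome, were low. PSMA8 was at 0 in each library, where a count of 0 allows up to 3 reads, and PSMB11 had 26.2, 7.75 and 11.4 in si-CTRL and 0, 3.68 and 2.23 in si-SAM68. PSMA6 was not analysed here. The loci of PSMA1, PSMA2 and PSME2 are joined with COPB1, C7orf25 and MIR7703 and their values hold reads of both genes. The joined PSME2 locus (hg19 chr14:24612574-25167051) overlaps 17 other loci with a mean of at least 10. In bulk RNA, fewer cells carrying a transcript and less of it per cell cannot be told apart.

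The sequences shown here are the siRNAs and the stretches of the changed members' transcripts that resemble them. The 4 siRNAs are written as the sense strand, 5′ to 3′, with the 7 bases that pair with guide bases 2 to 8 (the seed match) in capitals. Each of them was found whole, over 19 bases, in KHDRBS1.
siSAM68_1: gcacccatatgGACGTTAt
siSAM68_2: gaaagagcgagTGCTGATa
siSAM68_3: tatgatggatgATATCTGt
siSAM68_4: aaagatctctgTATTGGGa

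PSMD12, the 19S subunit Rpn5, shares an uninterrupted run of 13 bases with siSAM68_2, from base 1 of the siRNA, in its coding sequence at transcript position 645 (14 of 19 bases identical in all, seed match not covered). In the following lines the shared run is in capitals, first in the siRNA and then in the transcript (GENCODE, longest coding transcript of 4406 nt).
siSAM68_2, shared run: GAAAGAGCGAGTGctgata
PSMD12, coding site: atggaaaaGAAAGAGCGAGTGgaatttat

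PSMD9, a chaperone of the 19S base, shares a run of 10 bases with siSAM68_2 that covers the seed match, at transcript position 1119 in the 3′UTR. The 3′UTR of PSMD9 (1986 nt) held seed matches of 3 of the 4 siRNAs, in capitals below.
PSMD9, siSAM68_2: gagttttacagTGCTGATatgaccctgtt
PSMD9, siSAM68_3: caccctgtgtcATATCTGcccccagccag
PSMD9, siSAM68_4: caaagccttccTATTGGGcgaattccctc

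PSMD12 held seed matches of siSAM68_3 and siSAM68_4, and PSMB2, a beta subunit without catalytic activity, held that of siSAM68_4.
PSMD12, siSAM68_3: acagttgtgggATATCTGtcatatttatc
PSMD12, siSAM68_4: ttgacacagttTATTGGGtgttaagtccg
PSMB2, siSAM68_4: tcatattaaagTATTGGGttaacattaga

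These matches were looked for after the values had been seen. A run of 13 or more bases occurred in 8 of 19669 genes (0.0407% for siSAM68_2). They are KHDRBS1, MIEF1, PSMD12, CREB3L3, PDRG1 and 3 genes not found among the tested loci of 1 gene (CNTNAP5, RBM34 and TONSL). Of these, MIEF1 was lower in si-SAM68 (log2 fold change -1.34, limma adjusted p = 0.000139) and CREB3L3 (0.49, adjusted p = 0.293) and PDRG1 (0.11, adjusted p = 0.727) did not pass the test. A run of 10 or more bases with siSAM68_2 occurred in 2.38% of the genes, and seed matches of 3 of the 4 siRNAs in 0.887%. Of the 45 tested members, 7 held a seed match of any of the 4 siRNAs (15.6%, against 25.8% of all genes with a 3′UTR), with a median log2 fold change of 0.04 against 0.07 in the members without. Over the genes tested on loci of 1 gene, without KHDRBS1, 6.89% of those with no seed match of the 4 siRNAs were called lower (n = 8447). The share was 10.9% with a match of 1 siRNA (n = 2656), 11.9% with 2 (n = 698) and 11.4% with 3 (n = 132). In the same order 582, 290, 83 and 15 genes were called lower and 425, 159, 41 and 3 were called higher. The median log2 fold changes were -0.01, -0.01, -0.00 and -0.05. With matches of all 4 siRNAs 3 genes were tested, and 0 were called. PSMD12 and PSMD9 are themselves counted among the genes with matches of 2 and 3 siRNAs. The length of the 3′UTR was not taken into account. Seed matches were looked for only in the 3′UTR of the longest coding transcript of each gene. Which transcript forms these cells use was not tested. Seed matches of the control siRNAs were present too, since the 3′UTR of PSMD9 also held those of siCTRL_2, siCTRL_3 and siCTRL_4 and that of PSMD12 that of siCTRL_4. Whether the matches bear on the values of PSMD9 and PSMD12 was not tested.

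After Sam68 knockdown 3 of the 45 tested proteasome genes changed. At an adjusted p under 0.05, 1 of the 45 tested members was higher in si-SAM68 (PSMB2) and 2 were lower (PSMD9 and PSMD12). Over all 18849 loci tested 4.47% were called higher, 6.23% lower and 10.7% in either direction, whereas 6.67% of the members were called. The thresholds of the study are an unadjusted p up to 0.05 with a 1.5-fold change or more. Applied to the limma fit, they called 2.83% of all loci higher and 4.83% lower, and of the members PSMD9. The study's own calls came from another analysis and were not compared. The median log2 fold change was 0.05 over the members and 0.01 over all loci, with 28 members above 0 and 17 below. The median absolute log2 fold change was 0.11 over the members and 0.19 over all loci. All 3 si-SAM68 libraries lay above all 3 si-CTRL libraries in 7 members and below them in 5, together 26.7% of the members. Over all loci 16.6% were separated in this way upward and 17.3% downward. On the heat map of the members, PSMD9 and PSMD12 are the rows in which the groups part most clearly, and the column of si-CTRL replicate 1 is low in many rows.

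**Figure D1:**
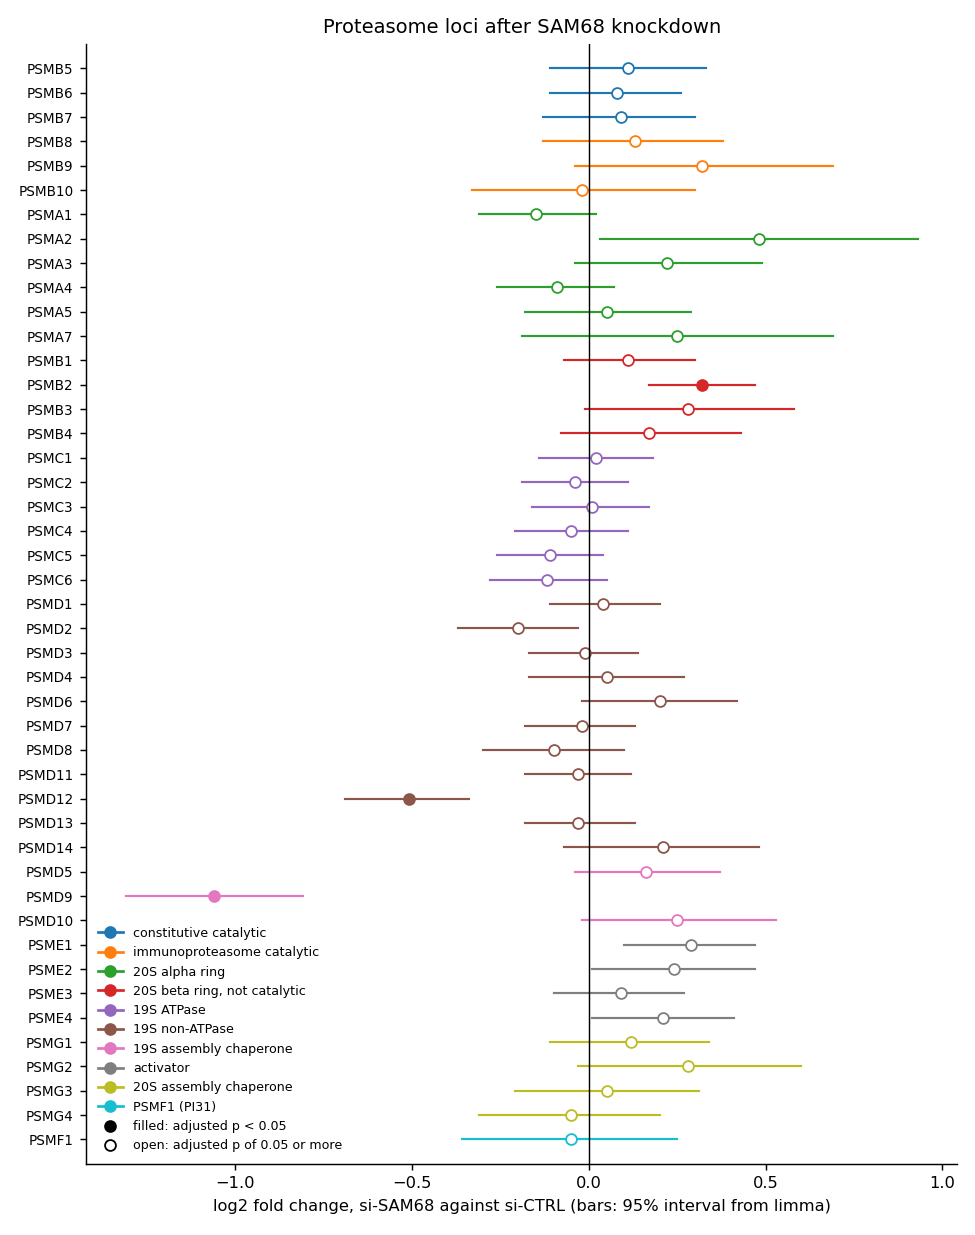
Log2 fold change (si-SAM68 against si-CTRL) of the 45 tested proteasome loci, ordered and colored by role, with the 95% interval from limma as a bar and filled points at an adjusted p under 0.05. PSMD9 (-1.06) and PSMD12 (-0.51) lie apart to the left and PSMB2 (0.32) is the filled point to the right.

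PSMD9 had the largest change of the members. The gene encodes the chaperone p27, which brings ATPases together during assembly of the 19S base and leaves before the proteasome is complete. Its locus (hg19 chr12:122326637-122355770) overlaps no other. The normalized read count was 1532, 1906 and 2018 in si-CTRL and 896, 880 and 820 in si-SAM68. The groups did not overlap, and the si-SAM68 libraries lay close together while si-CTRL replicate 1 was the lowest of its group. The mean fell from 1819 ± 254 (SD, n = 3) to 865 ± 40 (n = 3), which is 47.6% of the control, with a log2 fold change of -1.06 (SE 0.112, 95% interval -1.31 to -0.81, limma adjusted p = 0.000802). PSMD9 was number 67 of all loci by p-value and number 48 of those that fell. It stayed called when any library was left out (adjusted p up to 0.0116). The other chaperones of the 19S base did not pass the test. PSMD10 (gankyrin) had 6435 ± 1158 against 7589 ± 456 (log2 fold change 0.25, adjusted p = 0.224) and PSMD5 (S5b) had 4489 ± 470 against 5008 ± 214 (0.16, adjusted p = 0.284), and without si-CTRL replicate 1 they were at 0.10 and 0.08. The difference between these changes and that of PSMD9 was not tested. The partner PAAF1, a further chaperone of the same step, had a log2 fold change of 0.23 (adjusted p = 0.178).

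PSMD12 encodes the non-ATPase subunit Rpn5 of the 19S lid. Its locus (hg19 chr17:65334033-65362743) overlaps no other. The normalized read count was 11547, 10481 and 11055 in si-CTRL and 7387, 7457 and 8323 in si-SAM68, without overlap. The mean fell from 11028 ± 534 to 7722 ± 521 (n = 3 each), 70.0% of the control, with a log2 fold change of -0.51 (SE 0.0787, 95% interval -0.69 to -0.34, limma adjusted p = 0.0042). It stayed called without any single library (adjusted p up to 0.0286).

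PSMB2 encodes a structural beta subunit of the core. Its locus lies at hg19 chr1:36035413-36107445. The normalized read count was 18253, 18044 and 17435 in si-CTRL and 22923, 21627 and 22539 in si-SAM68, again without overlap. The mean rose from 17911 ± 425 to 22363 ± 665 (n = 3 each), 125% of the control, with a log2 fold change of 0.32 (SE 0.0682, 95% interval 0.17 to 0.47, limma adjusted p = 0.0179). The call was lost when a library was left out in 4 of the 6 cases. Adjusted p was then 0.0687 without si-CTRL replicate 3, and 0.0664, 0.0664 and 0.0796 when si-SAM68 replicates 1, 2 and 3 were removed in turn, while the log2 fold change stayed between 0.30 and 0.34.

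**Figure D2:**
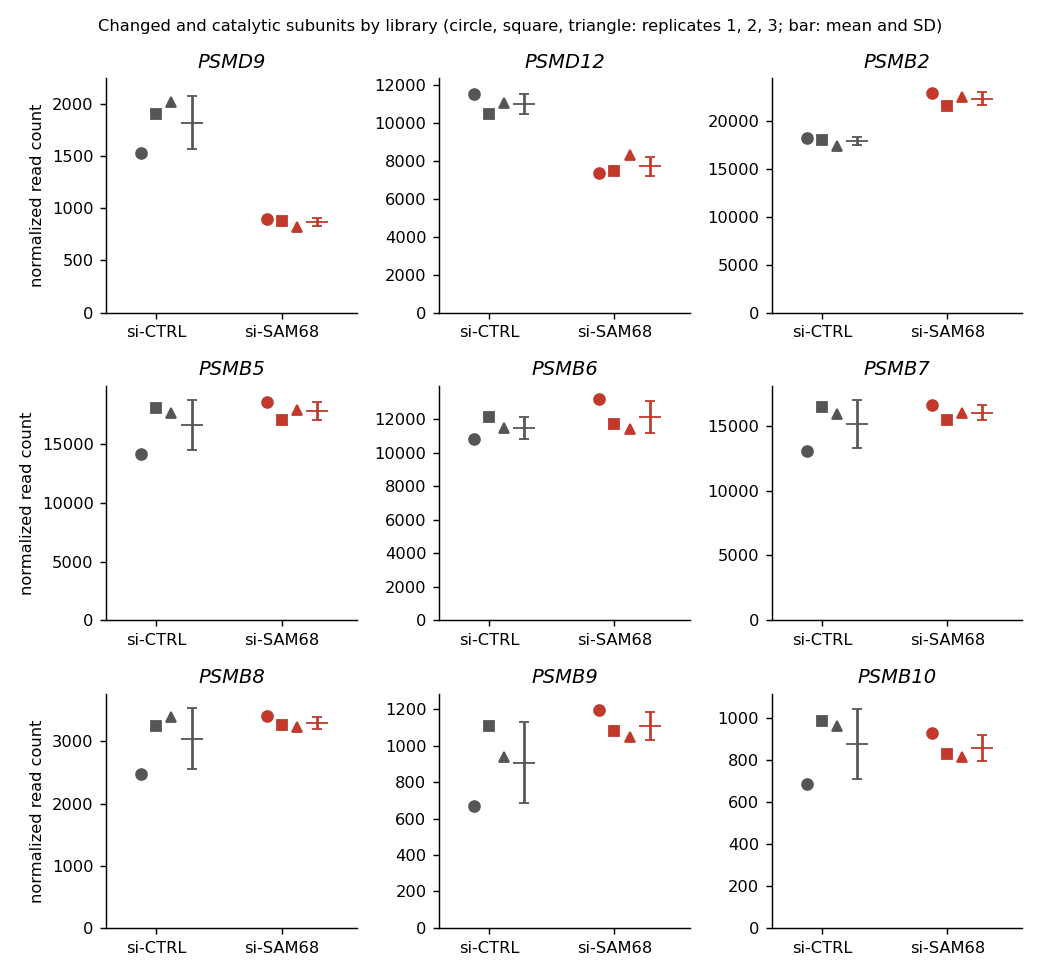
Normalized read counts in each library for the 3 members with an adjusted p under 0.05 and the 6 exchangeable catalytic subunits (circle, square and triangle are replicates 1, 2 and 3, and the bar gives mean and SD). The groups part in PSMD9, PSMD12 and PSMB2, and in the 6 catalytic subunits they overlap, with si-CTRL replicate 1 the lowest of its group.

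The catalytic subunits of the core were compared next, constitutive against immunoproteasome. None of the 6 passed the test. PSMB5, the chymotrypsin-like subunit, had 14199, 18059 and 17702 in si-CTRL and 18636, 17081 and 17901 in si-SAM68 (log2 fold change 0.11, 95% interval -0.11 to 0.33, adjusted p = 0.514). PSMB6, the caspase-like subunit, had 10805, 12117 and 11490 against 13190, 11722 and 11430 (0.08, -0.11 to 0.26, adjusted p = 0.589). PSMB7, the trypsin-like subunit, had 13030, 16499 and 15937 against 16655, 15483 and 15963 (0.09, -0.13 to 0.30, adjusted p = 0.597). In all 3 constitutive subunits the groups overlapped and si-CTRL replicate 1 was the lowest library. Without that library the log2 fold changes were -0.00, 0.04 and -0.02. The locus of PSMB5 overlaps that of DAD1, and the locus of PSMB7 overlaps another with a mean of at least 10. Reads may be shared with these.

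PSMB8, which takes the place of PSMB5, had 2482, 3254 and 3392 in si-CTRL and 3404, 3262 and 3226 in si-SAM68 (log2 fold change 0.13, 95% interval -0.13 to 0.38, adjusted p = 0.508). The locus of PSMB8 overlaps that of its antisense gene PSMB8-AS1, with which reads may be shared since the use of strand in counting is not given. PSMB9, which takes the place of PSMB6, had 669, 1110 and 939 against 1198, 1082 and 1050 (0.32, -0.04 to 0.69, adjusted p = 0.238), and its log2 fold change was 0.12 without si-CTRL replicate 1 and 0.48 (adjusted p = 0.0744) without si-CTRL replicate 2. PSMB10, which takes the place of PSMB7, had 684, 987 and 960 against 927, 831 and 814 (-0.02, -0.33 to 0.30, adjusted p = 0.96), and without si-CTRL replicate 1 it was -0.19 (adjusted p = 0.197). The groups overlapped in each of them.

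On a scale per length (mean normalized reads per kb of the longest coding transcript), the immunoproteasome subunits stood well below the constitutive ones in si-CTRL. The level per kb was 2252 for PSMB8, 1144 for PSMB9 and 720 for PSMB10, against 12870 for PSMB5, 13169 for PSMB6 and 15464 for PSMB7. In si-SAM68 the same levels per kb were 2441, 1401 and 704 against 13812, 13908 and 16361. The order of the 6 levels was thus PSMB7, PSMB6, PSMB5, PSMB8, PSMB9 and PSMB10 in both groups. Of neighbors in this order, PSMB6 and PSMB5 lay closer together than the spread between the libraries. The immunoproteasome subunits took 9.16%, 10.3% and 10.5% of the reads on the 6 catalytic loci in si-CTRL and 10.2%, 10.5% and 10.1% in si-SAM68 (9.98 ± 0.719% against 10.3 ± 0.181%, n = 3 each).

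The exchange of subunits was also followed as the log2 ratio of each immunoproteasome subunit to the one it replaces, taken within each library and so free of its scaling. For PSMB8/PSMB5 it was -2.52, -2.47 and -2.38 in si-CTRL and -2.45, -2.39 and -2.47 in si-SAM68 (difference 0.02, two-sided exact permutation p = 0.7). For PSMB9/PSMB6 it was -4.01, -3.45 and -3.61 against -3.46, -3.44 and -3.44 (difference 0.24, exact permutation p = 0.2, adjusted over the 3 ratios 0.45). For PSMB10/PSMB7 it was -4.25, -4.06 and -4.05 against -4.17, -4.22 and -4.29 (difference -0.10, exact permutation p = 0.3, adjusted 0.45). In PSMB9/PSMB6 si-CTRL replicate 1 lay far below the other libraries, and without it the difference was 0.08, whereas without si-CTRL replicate 2 it was 0.37. Without si-CTRL replicate 1 the difference was -0.01 for PSMB8/PSMB5 and -0.17 for PSMB10/PSMB7. With 3 libraries per group the smallest p this test can give is 0.1, so that no ratio could reach 0.05.

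**Figure D3:**
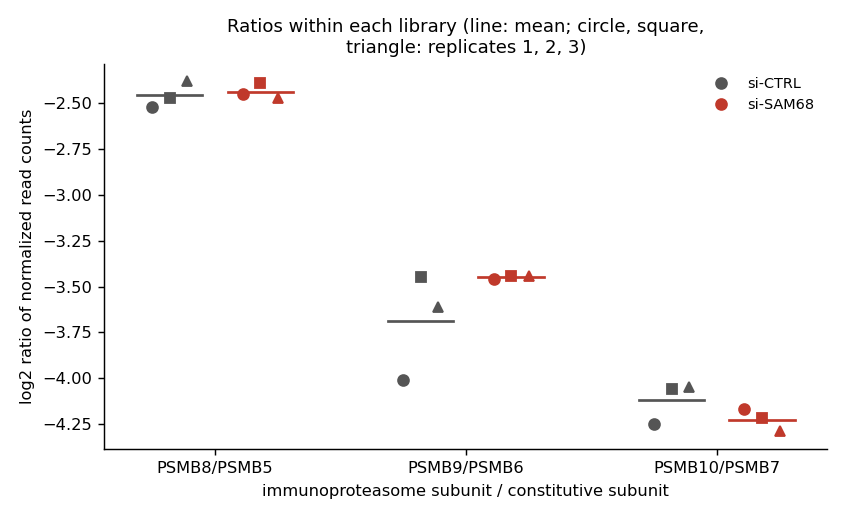
Log2 ratio of the normalized read counts of each immunoproteasome subunit to the constitutive subunit it replaces, by library (circle, square and triangle are replicates 1, 2 and 3, lines are means). The groups overlap in each ratio. In PSMB9/PSMB6 the control libraries spread from -4.01 to -3.45 and those of si-SAM68 lie at -3.46 to -3.44.

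Of the other subunits of the core, the 6 alpha ring members had log2 fold changes from -0.15 (PSMA1, on a locus joined with COPB1, adjusted p = 0.23) to 0.48 (PSMA2, on a locus joined with C7orf25, adjusted p = 0.163), with a median of 0.14 and none called. The value of PSMA2 was 6163, 11509 and 11496 in si-CTRL and 12804, 12652 and 13654 in si-SAM68. The groups did not overlap, but si-CTRL replicate 1 lay far below the other control libraries, and without it the log2 fold change was 0.18 (adjusted p = 0.0689). In PSMA7 the same library lay far below the others too, with 15280, 28357 and 27379 in si-CTRL and 28173, 26068 and 27145 in si-SAM68 (log2 fold change 0.25, and -0.04 without si-CTRL replicate 1). Beside PSMB2, the beta subunits without catalytic activity had values above 0, from 0.11 (PSMB1, adjusted p = 0.405) over 0.17 (PSMB4, adjusted p = 0.349) to 0.28 (PSMB3, adjusted p = 0.198). The median of these 4 beta subunits was 0.23 with all libraries and 0.08 without si-CTRL replicate 1.

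In the 19S cap, the 6 ATPases, which form the ring that unfolds the substrate, had log2 fold changes from -0.12 (PSMC6, adjusted p = 0.344) to 0.02 (PSMC1, adjusted p = 0.915), and none was called. The 95% interval for PSMC6 ran from -0.28 to 0.05 and for PSMC1 from -0.14 to 0.18. The sum over the 6 ATPase loci was 102927 ± 1867 in si-CTRL and 99499 ± 1925 in si-SAM68 (n = 3 each). The 11 non-ATPase subunits ranged from -0.51 (PSMD12) to 0.21 (PSMD14, the deubiquitinase of the lid, adjusted p = 0.309) with a median of -0.02. PSMD2, which docks ubiquitin shuttles on the cap, had the highest level per kb of the members in si-CTRL, 29219, and in si-SAM68 its level per kb was 25478, below the 27238 of PSMA7. Its normalized read count was 94699, 101673 and 105956 in si-CTRL and 87324, 89884 and 86412 in si-SAM68, so that the groups did not overlap (log2 fold change -0.20, adjusted p = 0.134). Without si-CTRL replicate 1 it passed the test (-0.24, adjusted p = 0.0273). The other lid subunits beside PSMD12, among them PSMD3 (-0.01), PSMD6 (0.20), PSMD7 (-0.02), PSMD11 (-0.03) and PSMD13 (-0.03), did not pass it.

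All 4 activators had a log2 fold change above 0, and in 3 of them the groups did not overlap (over all loci 16.6% were separated upward), but none was called. Without si-CTRL replicate 1 the log2 fold changes of PSME1, PSME2, PSME3 and PSME4 were 0.21, 0.11, 0.02 and 0.22. PSME1, the alpha subunit of PA28, had 10381, 12201 and 12273 in si-CTRL and 14273, 13747 and 14342 in si-SAM68 (log2 fold change 0.29, 95% interval 0.10 to 0.47, adjusted p = 0.0565). It was the member closest to the threshold, and it passed without si-CTRL replicate 1 (0.21, adjusted p = 0.034). PSME2, the beta subunit, on the joined locus with MIR7703, had 9857, 12891 and 12592 against 14028, 13642 and 13704 (0.24, adjusted p = 0.17). PSME3, which forms the nuclear PA28 gamma, had 7294, 8403 and 8434 against 8150, 8510 and 8924 (0.09, adjusted p = 0.54), and its groups overlapped. PSME4, the activator PA200, had 1546, 1491 and 1554 against 1602, 1884 and 1835 (0.21, adjusted p = 0.165). In PSME4 si-CTRL replicate 1 was like its fellows, whereas in the other activators it was the lowest library.

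The chaperones of the 20S core, PSMG1 to PSMG4, ranged from -0.05 (PSMG4, adjusted p = 0.805) to 0.28 (PSMG2, adjusted p = 0.232). PSMG2 had 2333, 3407 and 3530 in si-CTRL and 3703, 3535 and 3870 in si-SAM68, and was at 0.09 without si-CTRL replicate 1. PSMF1, which encodes the proteasome inhibitor PI31, had 5178, 3836 and 3534 against 4435, 3774 and 3760 (-0.05, adjusted p = 0.844). Of the tested members it was that in which si-CTRL replicate 1 stood highest above the other control libraries.

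The particle's parts were also summed over their loci, which gives weight to the abundant members. The sum over all 47 loci was 552488, 617164 and 628960 in si-CTRL and 614785, 596623 and 615147 in si-SAM68, so that the groups overlapped with si-CTRL replicate 1 the lowest. The 4 beta subunits without catalytic activity summed to 58291 ± 5022 against 67731 ± 3008 and the 4 activators to 32973 ± 3373 against 38214 ± 530 (n = 3 each). In both of these parts each si-SAM68 library lay above each si-CTRL library. The 11 non-ATPase subunits summed to 238471 ± 9664 against 224934 ± 1462, and here each si-SAM68 library lay below each si-CTRL library. The largest item of that sum is PSMD2. The sum over the 6 ATPases was separated downward as well. The 3 constitutive catalytic subunits (43279 ± 4608 against 46020 ± 2190) and the 6 alpha subunits (91202 ± 14828 against 98163 ± 3502) overlapped between the groups. These sums were not tested.

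Per length, the members differed widely although most are present in equal number in the assembled particle. The level per kb of the longest coding transcript in si-CTRL, over tested members on loci of 1 gene, ran from 216 for PSME4 to 29219 for PSMD2. Among the ATPases it lay between 4998 for PSMC1 and 13415 for PSMC5. Among the alpha subunits it was 23767 for PSMA7, 17283 for PSMA3, 3827 for PSMA4 and 2025 for PSMA5. The last 2 have long annotated transcripts (4411 and 3729 nt), which lowers the level per kb where the cells use a shorter form. PSMC1 (4448 nt), PSMD12 (4406 nt) and PSMB2 (4217 nt) have long annotated transcripts too. Before division by length, the mean in si-CTRL was 22232 for PSMC1 and 21183 for PSMC5. PSMD9, at 653 per kb in si-CTRL and 311 in si-SAM68, was among the members of low level, below the other 19S chaperones PSMD10 (4162 and 4909) and PSMD5 (1304 and 1455). PSMD12 had 2503 per kb in si-CTRL and 1753 in si-SAM68, and PSMB2 had 4247 and 5303.

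**Figure D4:**
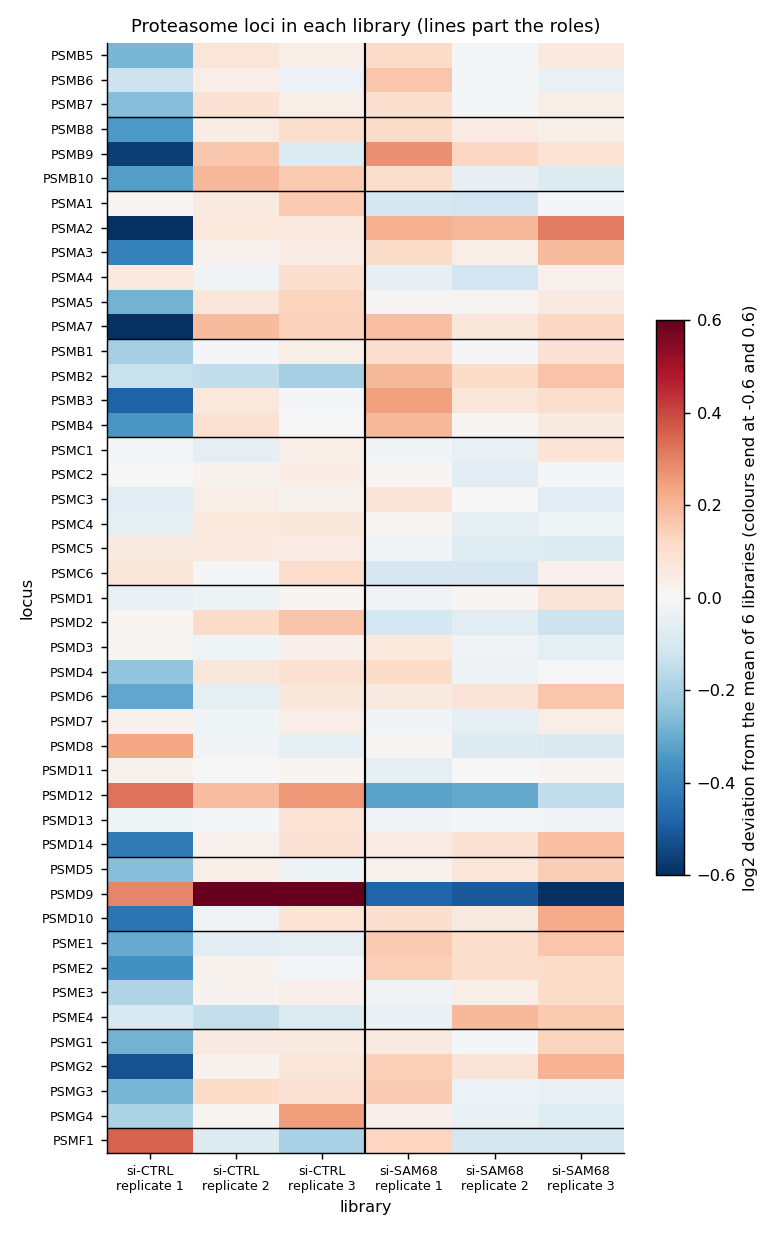
Log2 deviation of each tested proteasome locus from its mean over the 6 libraries (rows are loci in order of role, columns are libraries, colors end at -0.6 and 0.6). PSMD9 and PSMD12 part the groups, and the column of si-CTRL replicate 1 is blue (below the mean of the 6 libraries) in most rows. Compared with the other control libraries alone, si-CTRL replicate 1 is the lowest in 33 of the 45 loci.

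Because the same control library recurred, its part was measured over all members. si-CTRL replicate 1 was the lowest control library in 33 of 45 members (73.3%), against 40.6% of all loci tested. Its log2 value minus the mean of replicates 2 and 3 had a median of -0.24 over the members, from -0.90 (PSMA2) to 0.49 (PSMF1), and of -0.00 over all loci. The deviation went with transcript length. In the 15 members with a longest coding transcript under 1500 nt, it was the lowest control library in 15 and the median deviation was -0.37, whereas in the 14 members over 3000 nt the median was -0.02. Across the 42 members with 1 gene per locus the Spearman correlation of deviation and length was 0.58, and across 12031 tested loci for which a coding transcript was found it was 0.17, given as a description since loci share the libraries. Among those loci the median was -0.15 under 1500 nt (n = 1213) and 0.05 over 3000 nt (n = 6971). There si-CTRL replicate 1 was the lowest control library in 59.1% of the loci under 1500 nt and in 34.2% of those over 3000 nt. Without si-CTRL replicate 1 the median log2 fold change of the members was -0.01, with 21 above 0 and 24 below, and the members called were PSMB2 and PSME1 (higher) and PSMD9, PSMD12 and PSMD2 (lower). Over all loci the same fit called 15.1%. What sets this library apart was not tested.

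**Figure D5:**
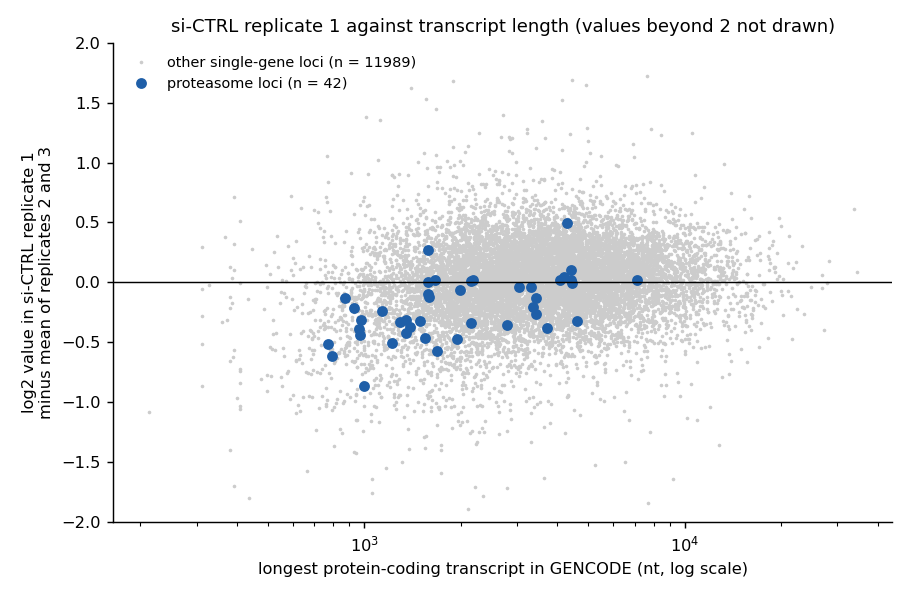
Log2 value in si-CTRL replicate 1 minus the mean of si-CTRL replicates 2 and 3 against the length of the longest coding transcript (nt, log axis), for 42 proteasome loci (blue) and the other loci of 1 gene (grey). The blue points under 1500 nt all lie below 0, with a median of -0.37, and those over 3000 nt scatter around -0.02.

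The promoters of the changed members were read for short motifs of factors known to act on proteasome genes, after the values had been seen. RefSeq windows (GRCh38.p14, 250 bases before to 50 after the start of the gene) were found for 41 of the 47 members. The antioxidant response element core TGACNNNGC, bound by NFE2L1 and NFE2L2 with small MAF proteins, was looked for on both strands. It was in 13 of the 41 member promoters (31.7%) and in 13.6% of all 27305 promoters. PSMD9 and PSMD12 carried it, and PSMB2 did not. The 2 promoters are shown because they belong to the members that fell, with the motif in capitals.
PSMD9, GRCh38.p14 chr12:121888540-121888839, plus strand: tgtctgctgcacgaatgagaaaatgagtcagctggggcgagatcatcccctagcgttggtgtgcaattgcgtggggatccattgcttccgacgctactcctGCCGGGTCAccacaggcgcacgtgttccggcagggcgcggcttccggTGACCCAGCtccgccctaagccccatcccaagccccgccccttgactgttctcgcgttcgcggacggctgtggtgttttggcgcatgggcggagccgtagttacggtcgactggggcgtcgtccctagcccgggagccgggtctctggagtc
PSMD12, GRCh38.p14 chr17:67366528-67366827, minus strand: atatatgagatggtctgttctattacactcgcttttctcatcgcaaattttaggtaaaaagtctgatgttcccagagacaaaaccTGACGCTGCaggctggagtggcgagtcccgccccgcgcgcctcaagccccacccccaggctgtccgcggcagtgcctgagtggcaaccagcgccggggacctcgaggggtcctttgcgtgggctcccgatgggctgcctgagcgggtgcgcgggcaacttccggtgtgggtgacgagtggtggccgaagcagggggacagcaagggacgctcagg

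PSMD9 held the motif at 2 places and PSMD12 at 1. The 13 tested members with the motif had a median log2 fold change of 0.16 (2 called) and the 26 without it -0.01 (1 called), so that the motif was found in members of either direction. The core of the interferon-stimulated response element (a repeat of GAAA with 2 bases between) was in 14.6% of the member promoters (PSMB4, PSMB10, PSMA4, PSMG4, PSME1 and PSME2) and in 3.65% of all, and the 6 members had log2 fold changes from -0.09 to 0.29 with none called. The CCAAT box was in 46.3% against 35.7%, and the STAT site core TTCNNNGAA in 12.2% against 7.88%. No motif overlap was taken into account, and a match is a description of the letters only.

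The genes around the proteasome were counted in lists of partners, control, ubiquitin, antigen presentation and protein quality control. Of the partners (13 genes on 14 loci) 2 rose and 1 fell, beside the background of 4.47% higher and 6.23% lower. ZFAND5, which binds the 26S proteasome and raises its activity, rose from 14904 ± 2608 to 20168 ± 948 (n = 3 each, log2 fold change 0.45, limma adjusted p = 0.0419). PITHD1, a protein of the PITH family that is found with the proteasome, rose from 3466 ± 363 to 4563 ± 67.9 (0.40, adjusted p = 0.0203). UBE3C, a ubiquitin ligase bound to the cap, fell from 4546 ± 56.1 to 3548 ± 185 (-0.36, adjusted p = 0.0157). These calls did not hold without each library, since none of the partners was called higher without si-SAM68 replicate 1, 2 or 3, and none lower without si-CTRL replicate 3, si-SAM68 replicate 1 or si-SAM68 replicate 2. POMP, which matures the core, was at 0.21 (adjusted p = 0.33), and the ubiquitin receptor ADRM1 (-0.22, adjusted p = 0.0844) and the deubiquitinase UCHL5 (-0.30, adjusted p = 0.083) that it anchors did not pass the test.

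Of 13 tested genes of the NFE2L1 route, which controls the transcription of proteasome genes, MAFF fell and none rose, which is 7.69% of the list called against 10.7% of all loci. MAFF, a small MAF partner of NFE2L1 and NFE2L2, went from 3526 ± 354 to 2349 ± 322 (log2 fold change -0.59, limma adjusted p = 0.0133, and 0.0604 without si-SAM68 replicate 3). NFE2L1 itself was at -0.10 (adjusted p = 0.711), and NFE2L2 at 0.25 (adjusted p = 0.0551). MAFG (0.03) and MAFK (0.06) did not pass the test either. DDI1 was at 0. None of the 13 ubiquitin and shuttle genes was called by limma, with 0 higher and 2 lower at an unadjusted p under 0.05, and edgeR and DESeq2 also called 0. Without si-CTRL replicate 1, 1 was called lower.

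Of the 24 genes of interferon signaling and class I presentation, which take up the peptides that the immunoproteasome makes, 2 rose and 1 fell, which is 12.5% of the list against 10.7% of all loci called in either direction. ERAP1, an aminopeptidase that trims peptides for class I, rose from 4271 ± 293 to 6077 ± 389 (log2 fold change 0.51, limma adjusted p = 0.00611, up to 0.0376 when a library was left out). IFNGR1, a chain of the interferon gamma receptor, rose from 2600 ± 302 to 3623 ± 92.2 (0.48, adjusted p = 0.0125, up to 0.0593). STAT2, a transcription factor of the type I interferon response, fell from 735 ± 71.3 to 555 ± 31.0 (-0.40, adjusted p = 0.0421, up to 0.16). Without si-CTRL replicate 1 the list had 4 called higher and 3 lower, without si-CTRL replicate 2 it had 2 and 2, without si-CTRL replicate 3 it had 2 and 0, and without si-SAM68 replicate 1, 2 or 3 it had 1 and 0. IRF1, which drives the immunoproteasome genes, was at 0.05 (adjusted p = 0.819) and TAP1, which lies next to PSMB8 and PSMB9 in the class II region of the MHC, at 0.03 (adjusted p = 0.864).

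The 12 genes of other protein quality control were included for comparison, and 3 of them fell (25%, against 6.23% of all loci), with all 12 below 0 (9258 of all 18849 loci) and a median log2 fold change of -0.19, against 0.01 over all loci. BAG3, a cochaperone of selective autophagy, fell from 2660 ± 363 to 1771 ± 212 (-0.59, limma adjusted p = 0.0147). BAG6, which hands defective membrane proteins to the proteasome, fell from 25860 ± 4334 to 18176 ± 1122 (-0.50, adjusted p = 0.0223). HSP90AA1, the inducible cytosolic HSP90, fell from 220305 ± 12259 to 176046 ± 12097 (-0.32, adjusted p = 0.0425), and with the replicate number as a block its adjusted p was 0.0694. The number called in this list was 4 without si-CTRL replicate 1, 2 without si-CTRL replicate 2 or 3, 1 when si-SAM68 replicate 1 was left out and 0 when its replicate 2 or 3 was.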

How the data were processed

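RNA of 6 libraries of MDA-MB-231 cells (3 si-CTRL, 3 si-SAM68, groups and replicate numbers from the labels) was measured by sequencing of polyadenylated RNA with a stranded kit. The labels name another medium and extraction kit than the methods of the study, and they count the harvest time from the second transfection. The deposited table of the authors holds a signal, namely the reads on each FAST DB locus (hg19) divided by the DESeq2 size factor of the library. The submitters' processing notes name STAR 2.4.0. The counter and its use of strand are not given in the sources used here.

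The members and lists were chosen with earlier results of these data known. All loci with a mean of at least 10 (18849, holding 99.96% of the reads) were tested with limma 3.58.1 in R 4.3.3 (lmFit, eBayes with trend) on log2(value + 1), a scale on which the change of low genes is understated, with Benjamini-Hochberg adjustment over all of them. Ratios were tested with a two-sided exact permutation test. Named are the exchangeable catalytic subunits, the activators and each member with an adjusted p under 0.05, of each other role the members with the largest and smallest log2 fold change, and of the lists each gene with an adjusted p under 0.05. Other genes named were chosen after their values were seen.

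Libraries of the same number deviated together, though weakly, from their group means (correlation 0.105, 0.231 and 0.125, against -0.125 to 0.00687 for different numbers). Deviations from a mean of 3 libraries are tied to each other, so that this check cannot decide whether the numbers pair the libraries. The reported fit and the ratio tests took no pairing into account. The fit was repeated with the replicate block, without each library, with pseudocounts of 0.1 and 5, with a mean of at least 50 or no filter, after TMM scaling or quantile normalization, with a robust trend, and with edgeR 4.0.16 and DESeq2 1.42.0 on the recovered reads, where edgeR called 859 loci higher and 1167 lower and DESeq2 1248 and 1541. Whole reads came out for 100% of the values, although in si-SAM68 replicate 1 the step of 1.007 is too close to 1 to prove it. The programs were tested on simulated data. Transcripts and lengths are from GENCODE 29 and promoters from RefSeq (GRCh38.p14). Counting error and 3 libraries per group limit the precision.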

Additional observations from a re-analysis of the deposited data

How the results depend on the processing

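At an adjusted p under the threshold PSMD9 and PSMD12 were called lower in each of the alternatives, joined by PSMD2 (3 members lower) without si-CTRL replicate 1. The number of members called higher was 1 in the reported fit, 2 (with PSME1) at a mean of at least 50, with DESeq2 and at an adjusted p under 0.1, 0 at an adjusted p under 0.01, and between 0 and 2 when a library was left out. At the thresholds of the study it was 0, and between 0 and 1 with a library left out, and a fold change of at least 1.2 gave 3 higher and 2 lower. The median log2 fold change of the members lay between -0.01 and 0.12 with a library left out. Over all loci 3.32% to 15.1% were called with a library left out. The log2 fold changes of PSMB5, PSMB7 and PSMB8 turned to -0.00, -0.02 and -0.01 without si-CTRL replicate 1, and reached 0.17, 0.15 and 0.21 without another library. That of PSMB10 turned to 0.01 under quantile normalization, and with a library left out it lay between -0.19 and 0.08 (0.08 and 0.06 without si-CTRL replicates 2 and 3, 0.01 and 0.02 without si-SAM68 replicates 2 and 3). The log2 ratio PSMB8/PSMB5 was -0.01 without si-CTRL replicate 1 or si-SAM68 replicate 2, and lay between -0.01 and 0.06 over the libraries left out.

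In the lists, partners called higher were 1 without the filter and under quantile normalization and 0 to 2 with a library left out, and partners called lower were 2 with DESeq2 and 0 to 1 with a library left out. Of the NFE2L1 route 1 gene was called higher at a mean of at least 50 and with DESeq2, and 0 to 1 higher and 0 to 1 lower with a library left out. Of the ubiquitin genes 0 to 1 was called lower with a library left out. Of the interferon and class I genes called lower there were 0 without the filter and under quantile normalization, 2 with DESeq2 and 0 to 3 with a library left out, and 1 to 4 were called higher with a library left out. Of other quality control 0 to 4 were called lower with a library left out.

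With the replicate number as a block, 1 member was called higher and 2 lower, with adjusted p of 0.0361 (PSMB2), 0.00519 (PSMD9) and 0.0124 (PSMD12), and it changed no other call of a member. Of the other genes named it ended the calls of HSP90AA1 and of the line marker KRT8 (0.0436 without the block and 0.0696 with it), and DNAJB1 passed with it (0.0511 and 0.0375). The causes of these shifts were not tested. Leaving out a library leaves 2 in its group, and 3 libraries per group cannot show small changes. Reads on processed pseudogenes and overlapping loci can be shared with the members, and the table holds levels of loci, not of isoforms.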
